A study of Mus musculus with 5 samples.

Results

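The Ly6 gene cluster of mouse chromosome 15 was described through the open chromatin and the HEB and TCF1 binding listed there in double positive (DP) thymocytes. Members were all regions of the DNaseI, HEB and TCF1 lists that overlapped a 500 kb window of mm9, chromosome 15 from 74500001 to 75000000, which is named for Ly6d, Ly6e and Ly6a. There were 74 members of 56796 listed regions. DNaseI gave 66 of its 48320, HEB 3 of its 4930 and TCF1 5 of its 3546. The window was chosen on measured values, because 1 of the 5 DNaseI regions with the highest scores lies in it and carries neither factor. Counts, scores and overlaps of the members are therefore given as a description with no test. All samples were DP thymocytes, labelled as strain C57/BL6 and 4 to 6 weeks old, with no other allele or treatment named. The series holds 5 samples, 1 per assay. DNaseI, HEB and TCF1 were analysed, and H3K9me3 and H3K27ac were not analysed here. With 1 sample per assay no value has a replicate error, and the intervals below cover counting error only.

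Ly6 proteins are small cysteine-rich proteins, most of them held on the cell surface by a glycosylphosphatidylinositol anchor, and many serve as surface markers of blood cells. Ly6a encodes Sca-1, a marker used to isolate mouse blood stem cells that is also present on activated lymphocytes. Ly6e encodes thymic shared antigen 1, a surface protein of immature thymocytes, and Ly6d encodes ThB, which marks early B lineage progenitors and part of the thymocytes. DNase I cuts chromatin where nucleosomes are absent or loosened, so the regions it cuts often mark promoters and enhancers. HEB is an E protein that binds E-box motifs, and TCF1 is an HMG-box protein. Both factors act in the development of DP thymocytes.

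The deposited lists give positions and no gene names, and the RefSeq gene table used here is of another build, GRCm38.p6. No region was therefore placed on a gene, and which region belongs to Ly6d, Ly6e or Ly6a was not tested. The table was used only for the order of the genes. All 21 genes of a list of Ly6 and related genes were found on chromosome 15. The order ran from Psca, Slurp1, Lypd2, Slurp2 and Lynx1 to Ly6d, then through Ly6k, Gml, Gml2 and Ly6m to Ly6e, and on through Ly6i to Ly6a. Lynx1, a modulator of nicotinic acetylcholine receptors, came directly before Ly6d. Between Ly6d and Ly6e lay 7 protein-coding genes. They included Cyp11b1 and Cyp11b2, enzymes of adrenal steroid synthesis that are no Ly6 genes. A single coding gene, Ly6i, lay between Ly6e and Ly6a. Beyond Ly6a came Ly6c1, Ly6c2, Ly6g, Ly6g2, Ly6f, Ly6l, Ly6h and Gpihbp1. Which of the 21 genes lie inside the mm9 window was not tested. Ly6c1, Ly6c2 and Ly6g encode the antigens known from monocytes and granulocytes, and Gpihbp1 the anchor of lipoprotein lipase on capillaries.

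Open chromatin was dense in the window. Its 66 DNaseI regions (95% exact Poisson interval 51.0 to 84.0) compare with a mean of 9.37 and a median of 2 over the 5160 windows of 500 kb on the same grid. Of these windows, 98.8% held fewer DNaseI regions and 63, the Ly6 window included, held as many or more. On chromosome 15, 3 of 201 windows held more. The regions covered 46.3 kb, or 9.27% of the window, against a median of 0.158% over all windows. Only 14 of the 5160 windows, this one included, reached that coverage, and on chromosome 15 only 1 had more. The 5160 windows include 2055 with no DNaseI region. The highest-scoring region, for which the window was chosen, is part of its coverage, at 14.6% of the open sequence. The rank of the window without that region was not tested.

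**Figure D1:**
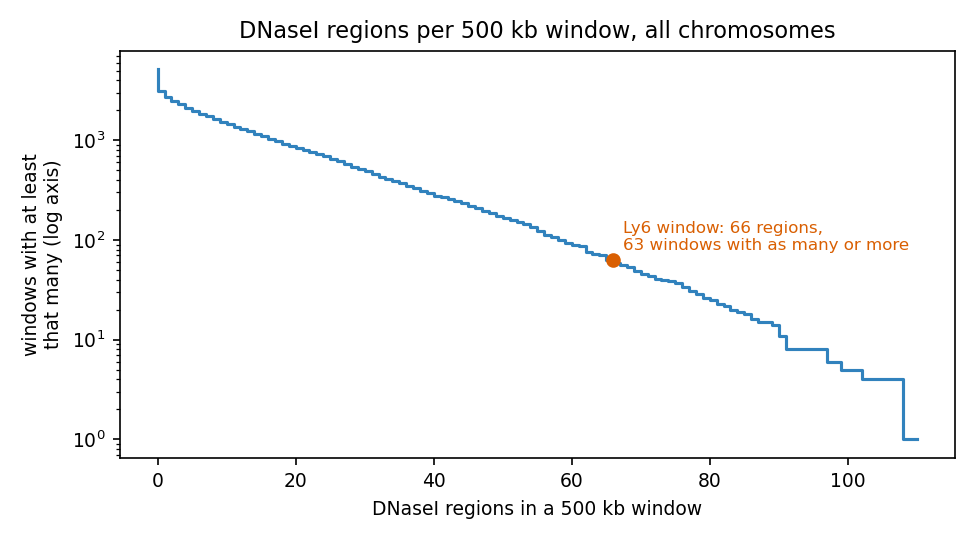
Number of the 5160 windows of 500 kb (y axis, log scale) that hold at least the number of DNaseI regions on the x axis. The point marks the Ly6 window with 66 regions, a number that 63 windows reach.

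Fewer DNaseI and TCF1 regions were listed on either side of the window than inside it. The 500 kb before the window held 6 DNaseI regions and the 500 kb after it also held 6, against 66 inside. The median over the 5160 windows was 2. No TCF1 region was listed in either of these flanks, and 3439 of the 5160 windows held none. The HEB list had 3 regions in the flank before, as many as the window, and none in the flank after. The median over all windows was 1 HEB region. The nearest TCF1 region before the window was 914 kb from its edge, with a score of 21, and the nearest after it was 672 kb away, with a score of 8. The nearest HEB regions outside lay 48.5 kb before and 612 kb after the window, each with a score of 10. The DNaseI region just outside the first edge lay from 74497873 to 74498233 (score 18), 1767 bp away, and the first one inside began at 74501756 (score 20). At the other edge the last region inside lay from 74945577 to 74945777 (score 9), and the first one outside from 75019541 to 75019802 (score 12).

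The open regions fell into a few packed groups. Counted by their centres, the successive 100 kb of the window held 21, 4, 33, 7 and 1 DNaseI regions. Regions with gaps of at most 10 kb were joined into stretches, which gave 11 stretches in the window. The richest stretch ran from 74725964 to 74766634 and held 24 regions in 40.7 kb, with 47.1% of its length open. Of the 19727 stretches of the whole list, 62 had 24 regions or more, and the median stretch had 1. The next stretch began with the highest-scoring region and held 8 regions over 22.1 kb, with 44.6% of its length open. Before them, a stretch from 74516008 to 74556267 held 10 regions and one from 74579562 to 74600456 held 9. A gap of 78.8 kb without a DNaseI region separated these first groups from the later ones, and a gap of 81.0 kb preceded the last region of the window.

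**Figure D2:**
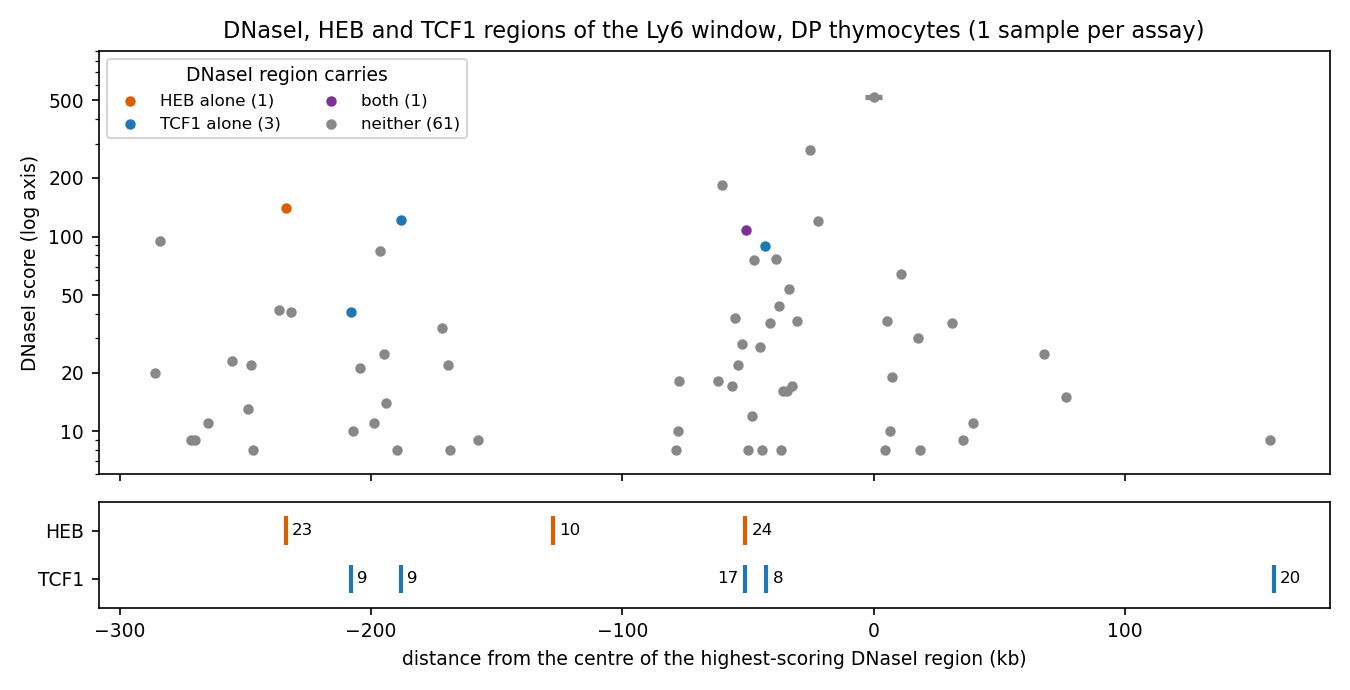
Map of the Ly6 window, with distance in kb from the centre of the highest-scoring DNaseI region on the x axis. Points are the 66 DNaseI regions (each with a line of its width, visible for the widest only), with the score on a log axis and colour for the factors carried; ticks below are the 3 HEB and 5 TCF1 regions with their scores. The highest point, score 521, carries neither factor, and 7 of the 8 factor regions lie to its left.

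The member that chose the window was its highest-scoring DNaseI region, chromosome 15 from 74784490 to 74791267. The score of 521, a whole number of unstated unit, was the fourth of the list. It was the highest of all 44334 DNaseI regions that carried neither factor, and the next such score was 411. The regions ranked next to it had scores of 555 and 508, and the sixth had 507. With 6778 bp it was the second widest region of the list, and it alone made up 14.6% of the open sequence of the window. Per kb of width its score was 76.9, which put it at rank 5078 of the list, where the median was 48.7. Among the 39 DNaseI regions with scores of at least 300, 36 had a higher score per kb, and their median was 115 (range 67.5 to 217). Its score per kb was thus low among these 39 regions and above the median of the list. Whether its width accounts for its rank by score was not tested.

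The other 4 of the 5 highest-scoring DNaseI regions all carried both factors and had higher scores per kb. The region on chromosome 11 from 52088379 to 52096224 (score 871, 7846 bp) had 111 per kb. The region on chromosome 14 from 54845340 to 54848697 (score 555, 3358 bp) had 165 per kb. The region on chromosome 2 from 31916687 to 31921445 (score 555, 4759 bp) had 117 per kb. The region on chromosome 8 from 108145095 to 108148814 (score 508, 3720 bp) had 137 per kb. The highest-scoring region of the window was thus the least dense of the 5 and the second widest.

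From the edge of the highest-scoring region of the window, the nearest TCF1 region lay 39.3 kb away, with a score of 8. The nearest HEB region lay 47.6 kb away, with a score of 24. Both lay before that DNaseI region. After it, the HEB list had no region before the end of the window and the TCF1 list had 1, at 159 kb from its centre. Of the 39 DNaseI regions with scores of at least 300, 9 carried neither factor (23.1%, 95% Wilson interval 12.6 to 38.3%), 20 carried both, 8 carried TCF1 alone and 2 HEB alone. Among the 9 without a factor, the distance to the nearest factor region of either list had a median of 32.4 kb and ran from 0.875 to 195 kb. It was longer than for the highest-scoring region of the window in 1 of them, and 4 had a factor region within 10 kb.

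Around this region the open chromatin was uneven. The gap to the preceding DNaseI region was 17.9 kb, and the gap to the following one 941 bp. Within 5 kb of its edges lay 4 other DNaseI regions, equal to the median of 4 for the 39 high-scoring regions. Within 10 kb there were 5, against a median of 7 (range 0 to 14), and within 20 kb 8, against 11 (0 to 25). Within 50 kb there were 29, against a median of 20 (range 1 to 46). Counted by centres, 17 lay in the 50 kb before and 10 in the 50 kb after.

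Without that region the DNaseI scores of the window ran from 8 to 277, and those of the list run from 8 to 871. Over all 66 regions the median score was 21.5 (quartiles 10.25 and 41), against 16 (10 and 33) in the list. Scores of 8, the lowest of the list, were found in 9 regions. In the window, 40 of 66 regions were above the list median, or 60.6% (48.5 to 71.5%), and 48.5% of the whole list were. The median width was 447 bp in the window and 315 bp in the list. Exactly 201 bp wide were 18 regions, or 27.3% (18.0 to 39.0%), close to the 26.4% of the list. Score followed width in the window as in the list, with Spearman's rho of 0.94 across the 66 regions and 0.94 across all 48320. These points share 1 library, and regions are not independent replicates.

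After the region of score 521, the next 9 scores of the window were 277, 184, 140, 121, 120, 108, 95, 89 and 84. The region of score 277 lay from 74760834 to 74764336, 20.2 kb before the highest-scoring one. It ranked 55 in the list by score and 23 by width (3503 bp), and it carried neither factor. The region of score 184, from 74726777 to 74728614, ranked 217 and also carried neither. The region of score 140, from 74552762 to 74555102 (2341 bp), carried HEB. The regions of score 121, from 74599060 to 74600456, and 89, from 74743901 to 74745471, carried TCF1. The region of score 108, from 74736515 to 74737353, carried both factors. It was 839 bp wide, and its 129 score units per kb ranked 511 in the list, the highest density of these 10 regions. The regions of score 120 (74764664 to 74766634), 95 (74503227 to 74504340) and 84 (74590994 to 74592292) carried neither. The first of them followed the region of score 277 directly. The 3 highest scores of the window carried no factor, and 4 of the next 7 did. In the list, neither factor was carried by 35.7% of regions with scores of 150 and above. The share was 53.9% at scores of 100 to 149 and 73.1% at 50 to 99. The highest-scoring region was chosen for carrying neither factor, so these counts support nothing.

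**Figure D3:**
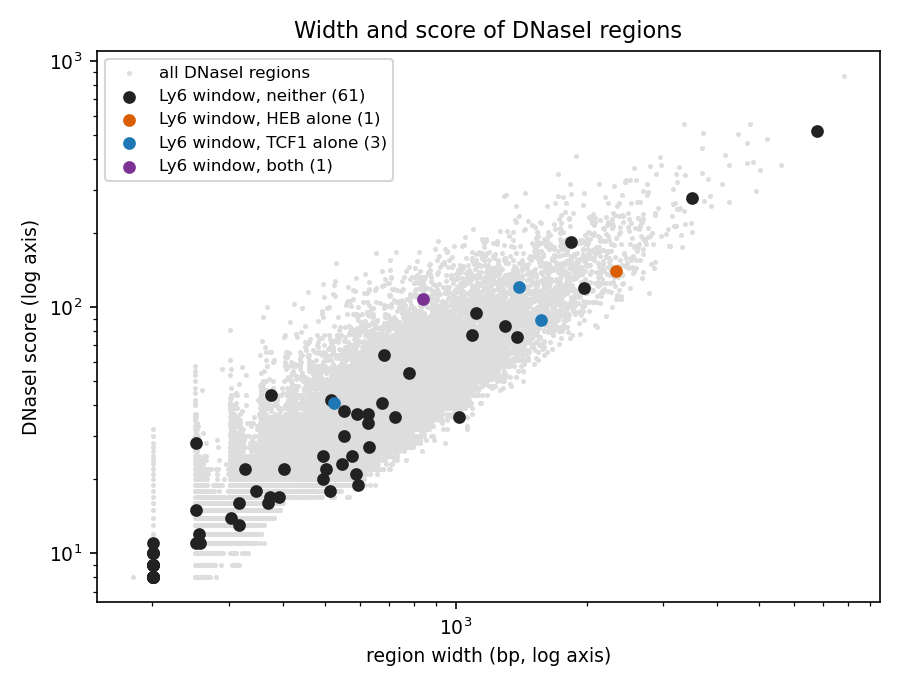
Width in bp (x axis) and score (y axis) of DNaseI regions, both on log axes; grey points are all regions of the list and dark or coloured points the 66 of the Ly6 window by the factors they carry. The region of score 521 lies at the wide end, to the right of the narrower regions of scores 508 and 507.

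Most of the open sequence lay in the stretch of 24 regions and the one after it, with 41.3% and 21.2% of the length covered in the window. Scores of the 24 regions ran from 8 to 277 with a median of 32, and 3 of them had the common width of 201 bp. In the following stretch the scores, in order along the chromosome, were 521, 8, 37, 10, 19, 64, 30 and 8. The highest-scoring region thus stood at the front of a row of narrow neighbours, none of them wider than 683 bp. The stretch of 10 regions had scores from 8 to 140 (median 17.5) and the stretch of 9 regions from 8 to 121 (median 21). The remaining 15 regions were the 2 at the start of the window, with scores of 20 and 95, and 13 others in 6 short stretches of 1 to 3 regions, where scores ran from 8 to 36. No factor region lay in any of these short stretches. All 4 DNaseI regions with TCF1 and both with HEB were in the stretches of 9, 10 and 24 regions.

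Both factors lay on a small part of the open regions of the window. Of the 66 DNaseI regions, 5 carried a factor, or 7.58% (3.28 to 16.5%), against 8.25% of the list. HEB lay on 2 of them (3.43% of the list), TCF1 on 4 (6.1% of the list) and both on 1 (1.28% of the list). These shares are near those of the list, and the window does not stand apart in them. The 5 regions with a factor had scores from 41 to 140 (median 108) and widths from 525 to 2341 bp. The 61 with neither factor (91.8% of the list carry neither) had scores from 8 to 521 (median 19), and in the list these medians were 52 and 15.

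By score, the window and the list could be set side by side. Of the 24 window regions with scores of 8 to 15 all carried neither factor, where 98.2% of the list did. At scores of 16 to 49 it was 27 of 28 (92.1% of the list), and at 50 to 99 it was 6 of 7 (73.1%). At scores of 100 to 149, 1 of 4 carried neither (53.9%). At 150 and above, all 3 carried neither, where 35.7% of the 457 such regions of the list (31.4 to 40.2%) did so. In this last band 41.4% of the list carried HEB and 55.1% TCF1. One of the 3 regions was chosen for lacking both factors, so their count supports nothing.

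**Figure D4:**
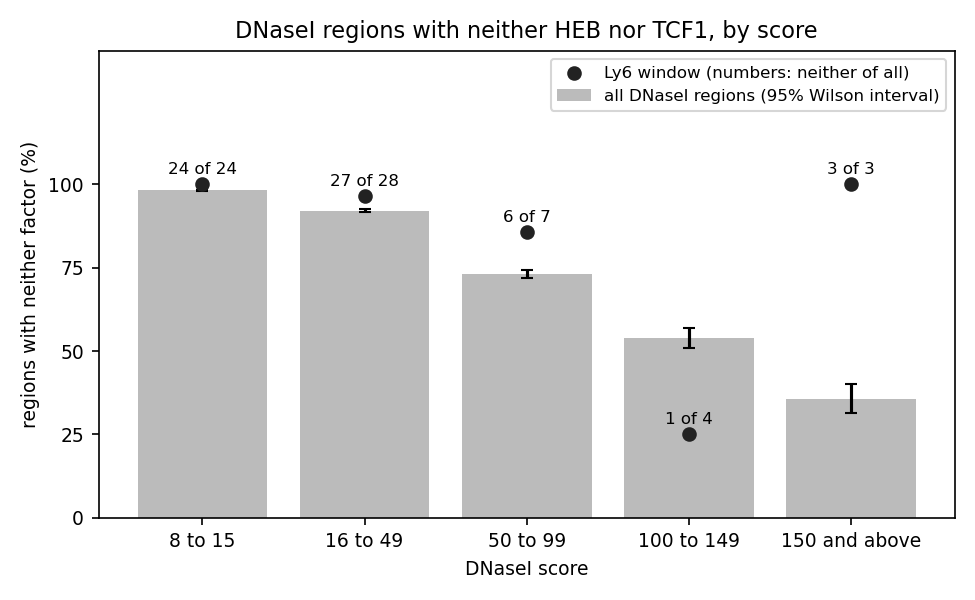
Share of DNaseI regions that carry neither HEB nor TCF1 (y axis, percent) by score band (x axis); bars are the whole list with 95% Wilson intervals and points the Ly6 window with its counts. The share in the list falls from 98.2% to 35.7% with rising score. The window has 1 of 4 at 100 to 149 and 3 of 3 at 150 and above, and 1 of these 3 was chosen for carrying neither factor.

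Windows as rich in open chromatin gave the scale for the number of factor regions. In 127 other windows with 53 to 82 DNaseI regions, the median was 3 HEB regions (quartiles 2 and 4, range 1 to 14) and 3 TCF1 regions (2 and 5, range 0 to 21). The 3 HEB regions of the Ly6 window equalled that median (95% exact Poisson interval 0.619 to 8.77). Its 5 TCF1 regions (1.62 to 11.7) lay at the upper quartile. Over all 5160 windows the means were 0.956 and 0.688. On chromosome 15 no window held more than 5 TCF1 regions and 3 others held as many.

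Of the 3 HEB regions, 2 lay in DNaseI regions, where 34.5% of the HEB list did. The HEB region from 74553803 to 74554003 (score 23, above 90.3% of the list) lay in the DNaseI region of score 140, with its centre 29 bp from the centre of that 2341 bp region. The HEB region from 74736653 to 74736853 (score 24, above 91.5% of the list) lay in the DNaseI region of score 108, with its centre 181 bp from the centre. In the list the median distance between these centres was 128 bp (quartiles 57 and 244). The third HEB region, from 74660094 to 74660294, had a score of 10, near the floor of 9 of that list. It lay in the gap of 78.8 kb, 29.7 kb from the nearest DNaseI region. Its distance was under the median of 64.7 kb (quartiles 12.0 and 315) for the 3229 HEB regions outside DNaseI regions.

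Of the 5 TCF1 regions, 4 lay in DNaseI regions, where 84.9% of the TCF1 list did. Scores of 9 belonged to the TCF1 regions from 74579619 to 74579801, in a DNaseI region of score 41, and from 74599640 to 74599822, in the DNaseI region of score 121. The second lay 27 bp from the centre of its open region. The TCF1 region from 74745041 to 74745223 had a score of 8, 1 above the lowest of the list. It lay 446 bp from the centre of its open region, which was 1571 bp wide. In the list the median distance to the centre was 119 bp (quartiles 54.5 and 220). The TCF1 region from 74736608 to 74736790 had a score of 17, above 84.3% of the list. The TCF1 regions on open regions thus had scores from 8 to 17, and the TCF1 region of score 20 lay on none.

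HEB and TCF1 met at 1 place in the window. The regions starting at 74736653 (HEB) and 74736608 (TCF1) shared 138 bp, and their centres were 54 bp apart. In the list, 11.7% of HEB regions met a TCF1 region, and the 578 overlapping pairs had a median distance of 43 bp between centres (quartiles 18 and 81). This was the place with the highest HEB score of the window, and its DNaseI region lay inside the stretch of 24 regions. The next nearest pair of a HEB and a TCF1 region in the window was 8.19 kb apart, from the same HEB region to the TCF1 region of score 8.

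The TCF1 region with the highest score of the window lay outside open chromatin. It ran from 74947052 to 74947234 with a score of 20, above 90.6% of the list, and was 1274 bp from the last DNaseI region of the window, a 201 bp region of score 9. Of the 335 TCF1 regions with scores of at least 20, a limit chosen after this value was seen, 10.7% (7.86 to 14.5%) lay outside DNaseI regions. Of the 536 TCF1 regions outside DNaseI regions, 39.2% (35.1 to 43.4%) had a DNaseI region within 2 kb, and the median distance was 5.40 kb. For HEB regions outside DNaseI regions the share within 2 kb was 6.22% (5.44 to 7.11%).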

How the data were processed

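The authors deposited 1 region list per assay, with a chromosome, start, end and whole-number score per region and no header. No unit is stated for the score in the deposited lists, so scores were compared only within a list. Per the labels' protocols, SOLiD sequencing was used. The build mm9 and HOMER 6.1, with no step named for it, are given in the submitters' processing notes. The aligner, thresholds, controls and depth are not given in the sources used, and depth is unknown. A region missing from a list was given no detection limit.

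Starts were converted to positions counted from 1. Sharing meant an overlap of at least 1 bp. The grid of 500 kb windows covered each chromosome between its outermost listed regions. Shares carry 95% Wilson intervals and counts exact Poisson intervals. Named regions were all factor regions, the 10 highest DNaseI scores, the regions at both edges and the other 4 highest-scoring DNaseI regions of the list. The members and lists were chosen with earlier results of these data known. Other window edges, overlap rules, score limits, grids and stretch gaps were tried. Overlap and counting code was tested on simulated data. Analyses used Python 3.11.15, numpy 2.4.6, pandas 2.3.3, scipy 1.17.1 and matplotlib 3.10.9.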

Additional observations from a re-analysis of the deposited data

How the results depend on the processing

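Of 31 alternative settings over 12 results, 17 left the value within 1.5 times (counts), within its interval (shares) or identical (other values). Widening the window by 100 kb on each side gave a coverage of 6.90%. Narrowing it by 100 kb gave 11.4% and left 2 TCF1 regions. Where only above-median scores of a list were kept, the window held 40 DNaseI regions with a coverage of 8.08%, above 99.5% of windows in count. Under that limit 2 TCF1 regions and 1 DNaseI region with TCF1 were left, and the nearest TCF1 region was 47.7 kb from the highest-scoring region. From centre to centre the nearest HEB region was 51.1 kb and the nearest TCF1 region 42.7 kb away. The highest-scoring region ranked 2 by width and 5078 by score per kb. A gap of 20 kb gave 5 stretches. No paired analysis was possible because each assay had 1 sample. The unknown depth limits what a missing region shows.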
